A study of Arabidopsis thaliana with 3 samples.

Results

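The genes described here encode proteins listed with RNA-binding or RNA helicase domains. They were chosen from 6814 genes of Arabidopsis thaliana by the names of protein domains that the authors listed downstream of an internal start window. A gene entered where a name contained RNA recognition motif, DEAD/DEAH box helicase, KH domain or Pumilio and no name contained ribosomal protein or ring finger. This gave 55 genes (0.807%), of which 41 entered through an RNA recognition motif, 6 through a DEAD/DEAH box, 8 through a KH domain and 0 through Pumilio. The table leaves names unspelled in 1542 of its 14437 entries, those with 4 or more listed domain models, and by domain accession 103 genes would have entered. The other 48 genes were left out by the naming of the table, not by their domains.

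RNA-binding proteins and RNA helicases accompany a transcript from its synthesis to its decay. The RNA recognition motif (RRM) and the KH domain are small folds that hold single-stranded RNA, and many proteins carry several copies. DEAD-box helicases use ATP to unwind short RNA duplexes or to strip proteins from RNA, and their core is built from the DEAD/DEAH box domain and a helicase C-terminal domain. In plants these proteins serve splicing, mRNA export, ribosome assembly, chloroplast RNA processing, the circadian clock and the timing of flowering.

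The names of a few members went against the label. CCoAOMT1 (AT4G34050, caffeoyl coenzyme A O-methyltransferase 1, an enzyme of lignin synthesis) entered through a model called RNA recognition motif 2, while the entries of its other isoform also list an O-methyltransferase domain. It held 4856 of the 23818 reads of the 55 genes in white light, 9037 of 32105 after 45 min and 7879 of 30627 after 90 min, so pooled values are given with and without it. TRM9 (AT1G31600, a tRNA methyltransferase by its RefSeq name) listed only an oxygenase domain on the transcript used here. RCF3 (AT5G53060) and AT2G38610 listed no RNA-binding domain on that transcript either, and all 3 entered through another of their transcripts.

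The study profiled transcript 5′ ends by PEAT (paired-end analysis of transcription start sites), in which the position where a read pair begins is taken as the start of a transcript. Total RNA came from whole seedlings of the wild-type accession Col-0 at an age of 10 days, kept in white light or given light enriched in far-red, the signal of canopy shade, for 45 or 90 min. Each condition had 1 library, so each test below sets 1 library against another rather than condition against condition, and nothing was checked by replication. In whole seedlings, fewer cells of a type and less RNA per cell cannot be told apart.

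For each transcript the authors counted all reads, the reads of a first start window and the reads of 1 or more second windows that leave only part of the coding sequence downstream. The table totals were 3440656 reads in white light, 4373900 after 45 min and 4125024 after 90 min. A member had a median of 208, 345 and 324 reads in these libraries, against 155, 188 and 182 for all genes. Read levels are reads per 1000000 table reads (RPM), not divided by length, so levels of different genes are not compared. The second-window share is the percentage of a gene's window reads that fell in its second windows, with 95% Wilson intervals, and fold changes carry exact 95% intervals from the read counts. Amplified reads that lack molecular identifiers are no independent molecules, so all intervals, and the limits that a count of 0 allows (3 reads of the total), reflect counting error alone. Of the 6 shoot and 6 root marker genes listed, 1 of each was in the table and the others were not analysed here. PSBO1, a photosystem II protein of shoots, had 56191, 113409 and 80778 reads in white light, after 45 min and after 90 min, and RCI3, a root peroxidase, had 672, 670 and 591. These marker reads are not scaled to the table totals, which were higher in far-red. The part of tissue make-up in the results was not tested.

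The first comparison asked how the read level of these genes differed in far-red. At 45 min 11 of the 55 genes stood 2-fold or more from white light, 4 higher and 7 lower, beside 24.9% of all 6800 genes with enough reads (14.0% higher and 10.9% lower). At 90 min there were 14, 8 higher and 6 lower, beside 28.1% of all 6802 genes (15.8% higher and 12.4% lower). Between the far-red libraries 11 genes differed by 2-fold or more at 90 min against 45 min, 6 higher and 5 lower, beside 17.0% of all 6806 genes (8.67% higher and 8.35% lower). The median log2 ratio of the members was 0.03 at 45 min, 0.01 at 90 min and 0.00 between the far-red libraries, where all genes gave -0.03, 0.00 and 0.03. These counts were near those of the table as a whole.

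**Figure D1:**
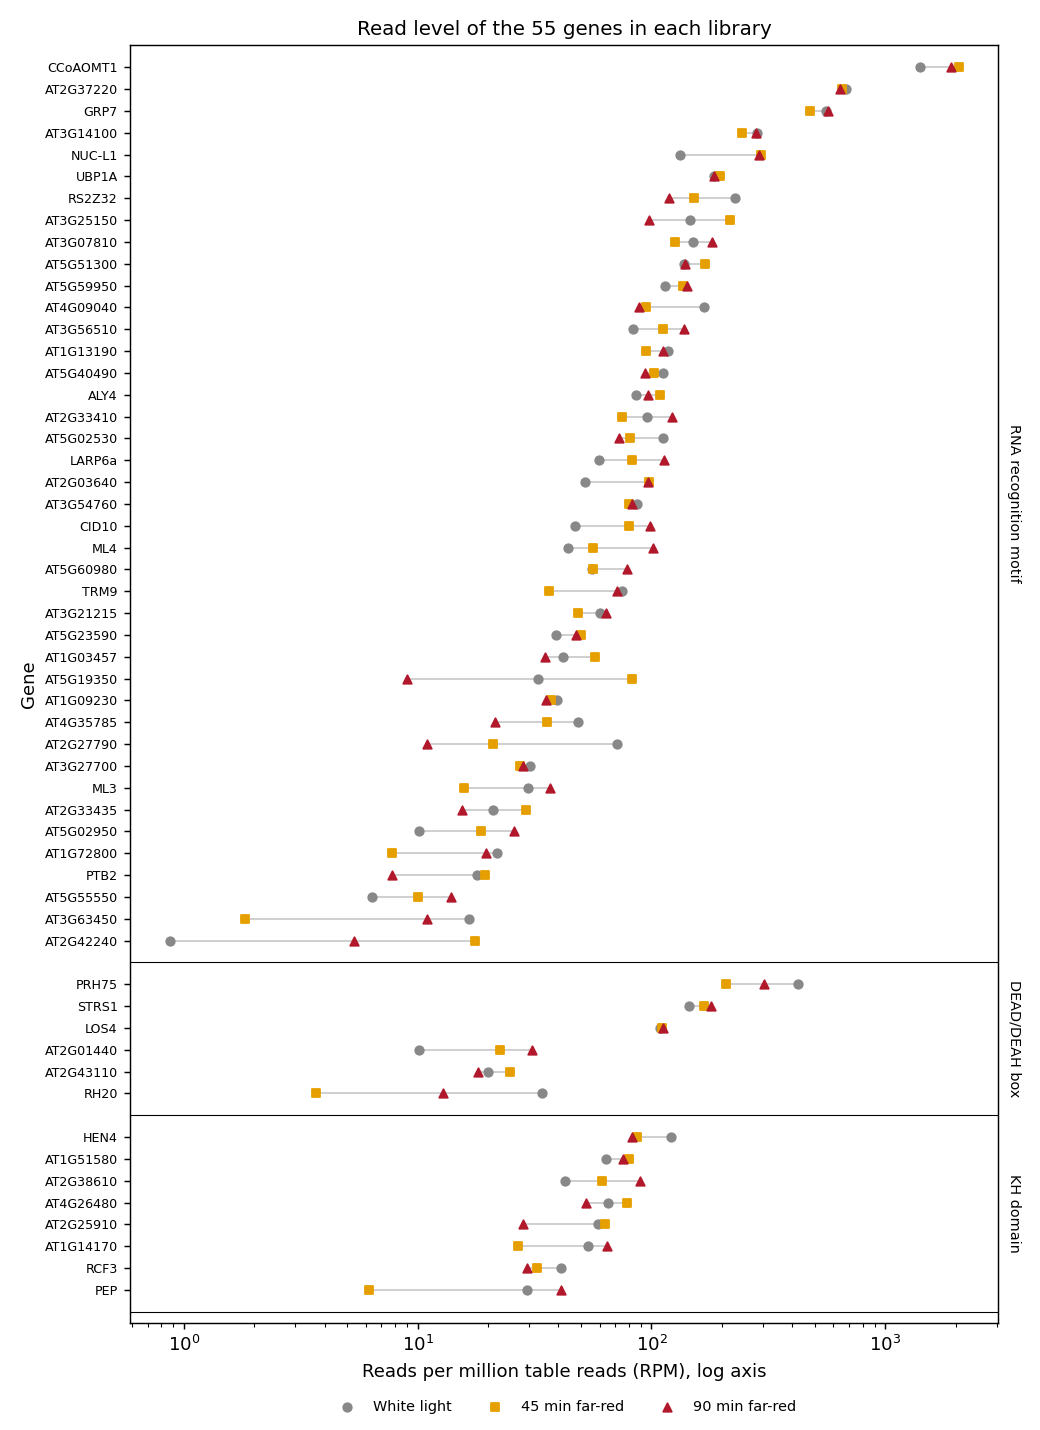
Read level of each of the 55 genes, in reads per 1000000 table reads on a log axis, in the white light, 45 min and 90 min libraries (1 library each), grouped by domain and sorted by total reads. The widest spread belongs to AT2G42240, with 3, 77 and 22 reads.

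Fewer genes passed 2-fold at higher depth. Among the 42 members with at least 100 reads in both libraries, 4 passed 2-fold at 45 min and 5 of 42 at 90 min, beside 8.76% and 9.30% of all genes at that depth. The largest ratio belonged to AT2G42240 (RRM), which had 3 reads in white light, 77 after 45 min and 22 after 90 min, a 20.2-fold higher level at 45 min with an interval of 6.66 to 100. RH20 (AT1G55150, a DEAD-box helicase) had 117, 16 and 53 reads, and its level at 45 min was 0.108 of that in white light (0.0595 to 0.182). Of the 55 genes, 26 overlap another annotated gene, and since the sources used here do not say whether reads were assigned by strand, their values are uncertain. All 4 genes that stood 2-fold or more higher at 45 min overlap another gene, against 1 of the 7 lower ones. At 90 min 5 of the 8 higher and 1 of the 6 lower genes do. At 90 min against 45 min the order is reversed, with 1 of the 6 higher and 3 of the 5 lower genes. Overlap was counted for the 55 genes alone, so no rate over all genes stands beside these small counts, which were not tested.

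The second comparison asked how reads were divided between the first and second windows. A gene counted as changed where Fisher's exact test (two-sided) gave a Benjamini-Hochberg adjusted p under 0.05 and the share differed by 10 percentage points or more. At 45 min against white light 34 of the 50 members with at least 20 window reads in both libraries had changed, 17 to a higher and 17 to a lower share, where 65.9% of all 6095 genes tested had changed (31.9% higher and 34.1% lower). At 90 min 36 of 53 had changed, 18 in each direction, where 68.1% of all 6094 genes had (37.6% higher and 30.6% lower). At 90 min against 45 min 28 of 52 had changed, 18 higher and 10 lower, where 57.5% of all 6357 genes had (34.6% higher and 22.8% lower). The members changed about as often as the table as a whole. Their median absolute change was 20.3 points at 45 min, 23.4 points at 90 min and 12.6 points between the far-red libraries. Over all genes tested it was 18.5, 20.3 and 14.7 points.

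**Figure D2:**
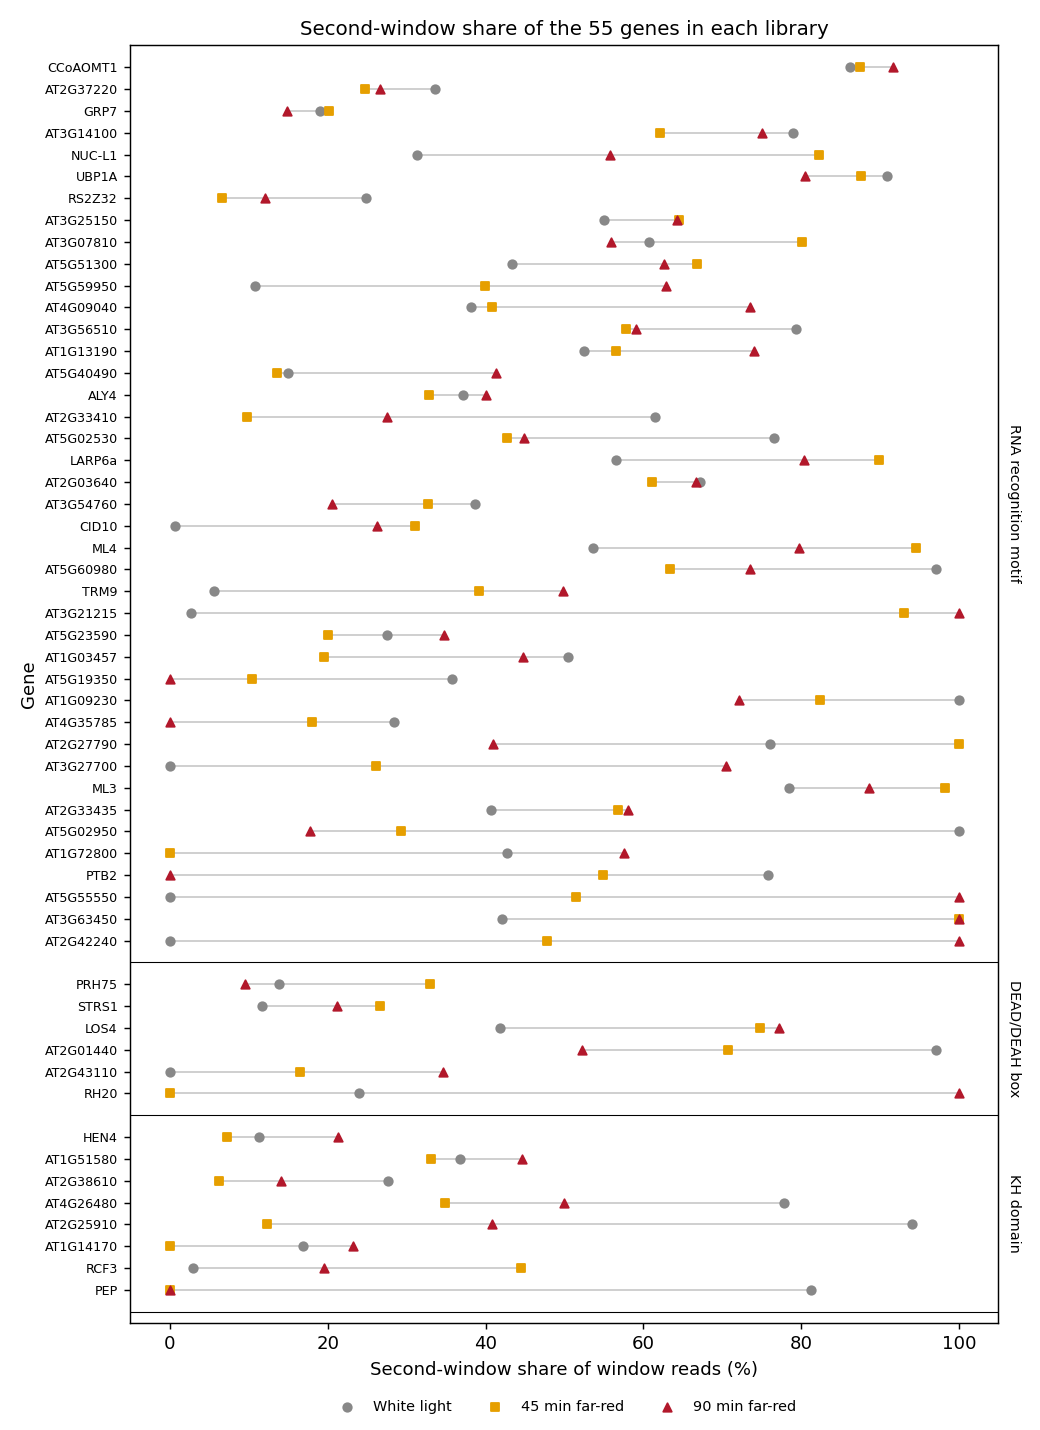
Second-window share (%) of each of the 55 genes in the white light, 45 min and 90 min libraries (1 library each), grouped by domain and sorted by total reads. CCoAOMT1, AT2G37220 and GRP7, the deepest genes, stayed within 10 points, and AT3G21215 stood at 2.65% in white light and at 93.1% and 100% in far-red.

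Pooled over the 55 genes, second windows took 50.2% of the window reads in white light, 56.4% after 45 min and 57.6% after 90 min. Without CCoAOMT1 the pooled share was 39.9%, 41.6% and 43.3%, against 34.3%, 37.3% and 39.0% in the whole table. By class, pooled reads and the median gene gave different courses. No minimum of window reads was set for these medians, so shares of shallow genes count fully. The 6 DEAD/DEAH box genes pooled to 19.8%, 42.7% and 29.9%, while their median share was 18.9%, 29.8% and 43.5%. Thus 90 min lay below 45 min in the sum and above it in the median. The sum leans on PRH75 (AT5G62190), the deepest of the 6, at 33.0% of 594 window reads after 45 min and 9.46% of 846 after 90 min. The median takes in RH20, at 0 of 10 window reads after 45 min and 35 of 35 after 90 min. Neither value was computed without the gene named, so no course is read for the class. The 8 KH genes pooled to 40.1%, 18.4% and 27.3%, with medians of 32.2%, 9.77% and 22.2%. The RRM genes without CCoAOMT1 pooled to 43.1%, 43.7% and 46.6%, with medians of 42.4%, 49.6% and 57.8%. With CCoAOMT1 they pooled to 54.6%, 59.7% and 62.0%, with medians of 42.7%, 51.4% and 58.0%. Over all genes the median share was 37.4%, 36.1% and 41.3%.

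At 45 min 4 of 5 DEAD/DEAH box genes tested had a higher and 1 a lower share, 1 of 7 KH genes a higher and 4 a lower share, and 12 of 38 RRM genes a higher and 12 a lower share. At 90 min the counts were 3 higher and 1 lower of 6 DEAD/DEAH box genes, 2 higher and 4 lower of 8 KH genes, and 13 higher and 13 lower of 39 RRM genes. Over all genes tested, 31.9% had a higher and 34.1% a lower share at 45 min, and 37.6% and 30.6% at 90 min. A difference between the classes was not tested, and the DEAD/DEAH box and KH values rest on few genes.

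The 3 genes with the most reads that entered through an RRM name, CCoAOMT1 among them, changed their split by less than 10 points in every pair. GRP7 (AT2G21660), a clock-controlled glycine-rich protein that binds RNA and regulates its own splicing, had 559 RPM in white light, 478 after 45 min and 569 after 90 min. Its share was 19% in white light (349 of 1834 window reads, interval 17.3% to 20.9%), 20.2% after 45 min (392 of 1939, interval 18.5% to 22.1%) and 14.9% after 90 min (324 of 2178, interval 13.4% to 16.4%). The changes against white light, 1.19 and -4.15 points, were below the minimum of 10 points, with adjusted p = 0.421 and 0.000814 (Fisher's exact test). The second window of GRP7 leaves 417 of 531 coding bases, with an overlap of 60 to 81 for its RRM models. The authors list an overlap from 60 to 100 for each domain model. It is read here as the percentage of the model left downstream, which the sources used here do not state. An overlap of 100 is called whole.

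AT2G37220, from the list of chloroplast ribonucleoproteins, had 677, 652 and 638 RPM in white light, after 45 min and after 90 min. Its share was 33.6% (720 of 2142), 24.7% (623 of 2524) and 26.6% (575 of 2165). The changes of -8.93 and -7.05 points had small p-values (Fisher's exact test, adjusted p = 8.46e-11 and 1.14e-06) but were under the minimum size. CCoAOMT1 had 1411 RPM in white light, 2066 after 45 min and 1910 after 90 min, with shares of 86.2%, 87.4% and 91.6%. Its level was 1.46-fold higher at 45 min (1.41 to 1.52) and 1.35-fold higher at 90 min (1.31 to 1.40), and its split was called in no pair.

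AT4G09040, the other chloroplast ribonucleoprotein among these genes, had a lower level in far-red and a late change in split. It had 577, 413 and 363 reads, which is 168, 94.4 and 88.0 RPM, so that its level was 0.563 of that in white light at 45 min (0.495 to 0.640) and 0.525 at 90 min (0.459 to 0.599). Its share was 38.2% (176 of 461) in white light, 40.8% (131 of 321) after 45 min and 73.5% (247 of 336) after 90 min. The share rose by 35.3 points in the 90 min library against white light (Fisher's exact test, adjusted p = 2.32e-22) and by 32.7 points against 45 min (exact test, adjusted p = 1.93e-16), while the 45 min change of 2.63 points did not pass. Both of its second windows leave an RRM whole.

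NUC-L1 (AT1G48920), nucleolin 1, a nucleolar protein of rRNA gene transcription and processing, combined a higher level with a changed split. It had 456 reads in white light, 1280 after 45 min and 1194 after 90 min, or 133, 293 and 289 RPM, 2.21-fold (1.98 to 2.46) and 2.18-fold (1.96 to 2.44) higher in far-red. Its share was 31.3% in white light (106 of 339, interval 26.6% to 36.4%), 82.3% after 45 min (756 of 919, interval 79.7% to 84.6%) and 55.8% after 90 min (465 of 833, interval 52.4% to 59.2%). The 3 intervals do not overlap, and the share rose by 51.0 points in the earlier far-red library and by 24.6 points in the later library (Fisher's exact test, adjusted p = 4.47e-62 and 8.35e-14). Between the far-red libraries it fell by 26.4 points (exact test, adjusted p = 5.50e-32). The second window leaves 429 of 1674 coding bases with an RRM overlap of 82, and the gene overlaps another annotated gene.

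RS2Z32 and the U11/U12-65K protein, both of the splicing machinery, had lower second-window shares in far-red. RS2Z32 (AT3G53500), an arginine/serine-rich splicing factor with zinc knuckles, had 228 RPM in white light, 153 after 45 min and 119 after 90 min. Its share was 24.8% (177 of 713), 6.57% (38 of 578) and 12.0% (56 of 465), and the share fell by 18.3 points in the earlier far-red library and by 12.8 points in the later library (Fisher's exact test, adjusted p = 1.05e-18 and 9.90e-08). Its second window leaves 686 of 732 bases, with both zinc knuckles whole and an RRM overlap of 62, and the gene overlaps another annotated gene. AT1G09230, the U11/U12-65K protein of the minor spliceosome, had 39.5, 37.0 and 35.4 RPM. The second windows held all 134 window reads in white light (100%, lower bound 97.2%), and the share was 82.4% (84 of 102) after 45 min and 72.1% (93 of 129) after 90 min. The share fell by 17.6 points in the earlier far-red library and by 27.9 points in the later library (Fisher's exact test, adjusted p = 2.84e-07 and 1.60e-12), and both of its second windows leave an RRM whole.

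PTB2 and the SF1 homologue, splicing proteins as well, changed in opposite directions. PTB2 (AT5G53180), a polypyrimidine tract-binding protein that acts on alternative splicing, had 62, 85 and 32 reads and shares of 75.8% (47 of 62), 54.9% (39 of 71) and 0% (0 of 32, which allows up to 9.38%). Its share fell by 20.9 points in the earlier far-red library and by 75.8 points in the later library (Fisher's exact test, adjusted p = 0.0251 and 4.78e-13). AT5G51300, the Arabidopsis homologue of splicing factor SF1, which recognises the branch point, went the other way. Its share was 43.4% (161 of 371) in white light, 66.8% (397 of 594) after 45 min and 62.6% (236 of 377) after 90 min, a rise by 23.4 and by 19.2 points (exact test, adjusted p = 4.16e-12 and 4.26e-07).

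Genes with the C-terminal duplication domain of the mRNA export adaptors, which hand spliced mRNA to the export receptor, also diverged. AT5G59950 had 114, 136 and 142 RPM and shares of 10.8% (38 of 353), 40.0% (227 of 568) and 62.9% (368 of 585). The share rose by 29.2 points in the earlier far-red library and by 52.1 points in the later library (Fisher's exact test, adjusted p = 3.98e-22 and 2.02e-58), and by 22.9 points at 90 min against 45 min (exact test, adjusted p = 5.28e-14). AT5G02530 had 112, 80.9 and 72.5 RPM and shares of 76.6% (288 of 376), 42.8% (130 of 304) and 44.9% (102 of 227). Its share fell by 33.8 and by 31.7 points (exact test, adjusted p = 1.30e-18 and 2.42e-14). ALY4 (AT5G37720) had shares of 37.2%, 32.8% and 40.0% and changed in no pair. All 3 overlap another annotated gene.

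The list of oligouridylate-binding, RBP45/47 and PTB proteins, many of which bind U-rich or pyrimidine-rich RNA, moved in both directions. Of its 8 genes in the table, a rise in share passed in 2 and a fall in 4 at 45 min, and likewise at 90 min. Over all genes a rise passed in 31.9% and 37.6% and a fall in 34.1% and 30.6%. Both genes that rose are not among the 55. RBP45A stood at 2.56%, 17.5% and 24.3% in white light, after 45 min and after 90 min (Fisher's exact test, adjusted p = 8.92e-08 and 2.20e-13 against white light), and RBP47C' at 0.939%, 11.04% and 20.9% (exact test, adjusted p = 2.71e-06 and 1.90e-14). The members UBP1A, AT3G14100 and AT5G19350, like PTB2, fell wherever a change against white light passed. UBP1A (AT1G54080) had 185, 196 and 186 RPM and shares of 90.9% (419 of 461), 87.5% (568 of 649) and 80.5% (443 of 550), and the share fell by 10.3 points in the 90 min library (Fisher's exact test, adjusted p = 6.43e-06). AT3G14100 had 282, 245 and 280 RPM and shares of 79.0%, 62.0% and 75.0%, and the share fell by 16.9 points at 45 min (exact test, adjusted p = 6.42e-13). AT5G19350 differed most in level, with 113 reads in white light, 360 after 45 min and 37 after 90 min, or 32.8, 82.3 and 8.97 RPM. It was 2.51-fold higher than white light at 45 min (2.02 to 3.12) and 0.273 of it at 90 min (0.183 to 0.399). Its share was 35.7% (20 of 56), 10.4% (32 of 307) and 0% (0 of 36, which allows up to 8.33%), and the share fell by 25.3 and by 35.7 points (exact test, adjusted p = 1.63e-05 and 2.40e-05). AT3G14100 and AT5G19350 overlap other annotated genes.

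CID10 and the MEI2-like genes ML4 and ML3 had higher second-window shares at 45 min. CID10 (AT3G49390), a partner of the C-terminal domain of poly(A)-binding protein, had 162, 349 and 408 reads, or 47.1, 79.8 and 98.9 RPM, 1.69-fold (1.40 to 2.05) higher at 45 min and 2.1-fold (1.75 to 2.54) higher at 90 min. Its second window held 1 of 149 reads (0.671%) in white light, 82 of 264 (31.1%) after 45 min and 76 of 290 (26.2%) after 90 min, and the share rose by 30.4 and by 25.5 points (Fisher's exact test, adjusted p = 2.03e-16 and 6.93e-14). That window leaves 164 of 1062 coding bases with an RRM overlap of 80. ML4 (AT5G07290), a MEI2-like protein of the family linked to meiosis and development, had 43.9, 56.5 and 102 RPM and shares of 53.7% (73 of 136), 94.5% (104 of 110) and 79.7% (212 of 266). Its share rose by 40.9 and by 26.0 points (exact test, adjusted p = 5.03e-13 and 2.89e-07), and its level at 90 min was 2.32-fold that in white light (1.92 to 2.81). At 45 min 137 of the 247 reads of ML4 lay in neither window.

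ML3 (AT4G18120), the other MEI2-like member, had shares of 78.4% (80 of 102), 98.2% (54 of 55) and 88.6% (109 of 123), and the rise by 19.8 points at 45 min passed (Fisher's exact test, adjusted p = 0.00101). LARP6a (AT5G46250), a La-related protein, had 59.6, 82.3 and 113 RPM and shares of 56.5% (100 of 177), 89.9% (248 of 276) and 80.4% (316 of 393), a rise by 33.4 and by 23.9 points (exact test, adjusted p = 2.46e-15 and 1.98e-08). AT1G03457, Bruno-like 2, whose family binds U-rich elements of mRNAs, went the other way. Its share was 50.4% (62 of 123), 19.5% (38 of 195) and 44.7% (51 of 114), and the share fell by 30.9 points at 45 min (exact test, adjusted p = 4.12e-08), and at 90 min it lay -5.67 points from white light (exact test, adjusted p = 0.488).

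AT3G21215 changed its split most among the members with at least 100 window reads in every library. Its reads were 208, 212 and 264, or 60.5, 48.5 and 64.0 RPM, 0.802 of white light at 45 min (0.659 to 0.975) and 1.06-fold of it at 90 min (0.879 to 1.28). The second windows held 3 of 113 window reads in white light (2.65%, interval 0.907% to 7.52%), 134 of 144 after 45 min (93.1%, interval 87.7% to 96.2%) and 174 of 174 after 90 min (100%, lower bound 97.8%). The share rose by 90.4 points in the earlier far-red library and by 97.3 points in the later library (Fisher's exact test, adjusted p = 2.38e-54 and 9.93e-75). Its second windows leave 669 of 1020 coding bases, with an RRM whole, and 222 bases, with an overlap of 87. The gene overlaps another annotated gene.

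Other RRM genes of the naming rule moved in both directions. AT2G33410 had 95.6, 75.0 and 123 RPM and shares of 61.5% (187 of 304), 9.73% (25 of 257) and 27.5% (91 of 331), and the share fell by 51.8 and by 34.0 points (Fisher's exact test, adjusted p = 8.74e-38 and 3.10e-17). TRM9 had 74.7, 36.6 and 71.0 RPM, 0.490 of white light at 45 min (0.399 to 0.599), and shares of 5.56% (12 of 216), 39.2% (49 of 125) and 49.8% (115 of 231). Its share rose by 33.6 and by 44.2 points (exact test, adjusted p = 7.39e-14 and 1.94e-26). AT2G03640 had 52.0, 97.2 and 96.2 RPM, 1.87-fold (1.56 to 2.24) and 1.85-fold (1.55 to 2.22) higher in far-red, with a split of 67.2%, 61.2% and 66.7% that changed in no pair. AT2G03640 overlaps another annotated gene.

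The DEAD/DEAH box genes were led by PRH75 (AT5G62190), a plant DEAD-box helicase, whose level and split both differed at 45 min. It had 1450 reads in white light, 911 after 45 min and 1251 after 90 min, or 421, 208 and 303 RPM, 0.494 of white light at 45 min (0.454 to 0.537) and 0.720 at 90 min (0.667 to 0.777). Its share was 13.8% (155 of 1122), 33.0% (196 of 594) and 9.46% (80 of 846). The share rose by 19.2 points in the 45 min library (Fisher's exact test, adjusted p = 5.98e-19), and at 90 min it lay -4.36 points from white light, below the minimum size. The second window leaves 1636 of 2016 bases, with a DEAD/DEAH box overlap of 96 and the helicase C-terminal domain whole.

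STRS1 (AT1G31970), a helicase named for suppressing stress responses, had 144, 167 and 180 RPM and shares of 11.7% (39 of 333), 26.6% (112 of 421) and 21.1% (95 of 450). The rise by 14.9 points at 45 min passed (Fisher's exact test, adjusted p = 8.88e-07), and the 9.40 points at 90 min were under the minimum size. LOS4 (AT3G53110), a helicase of mRNA export that is needed for normal cold and heat responses, had 109, 111 and 112 RPM, with a ratio to white light of 1.02 (0.889 to 1.17) at both times. Its share was 41.8% in white light (145 of 347), 74.8% after 45 min (318 of 425) and 77.2% after 90 min (260 of 337), a rise by 33.0 and by 35.4 points (exact test, adjusted p = 1.03e-19 and 1.61e-20). The far-red libraries differed by 2.33 points (exact test, adjusted p = 0.576). LOS4 overlaps another annotated gene.

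The shallower DEAD/DEAH box genes differed in direction. AT2G43110 has 867 coding bases and lists a DEAD/DEAH box and a part of a pre-ribosomal complex subunit model but no helicase C-terminal domain, unlike the other 5, so that its name as a helicase rests on the naming rule alone. Without it the class pooled to 20.5%, 44.5% and 29.7%. In white light AT2G43110 was listed at 0 of 69 window reads in the second window, which allows up to 4.35%, and had 18 of 109 (16.5%) after 45 min and 26 of 75 (34.7%) after 90 min. Its share rose in both comparisons with white light (Fisher's exact test, adjusted p = 0.000262 and 1.02e-08). AT2G01440 had 34 of 35 (97.1%), 53 of 75 (70.7%) and 58 of 111 (52.3%), and the share fell by 26.5 and by 44.9 points (exact test, adjusted p = 0.00146 and 4.34e-07), at a level 2.20-fold (1.48 to 3.34) and 3.03-fold (2.07 to 4.54) that of white light. RH20 had 28 of 117 (23.9%) in white light and 35 of 35 (100%) at 90 min, a rise by 76.1 points (exact test, adjusted p = 1.18e-16), and its 10 window reads at 45 min were too few to test. AT2G43110 and AT2G01440 overlap other annotated genes.

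Among the KH genes the fall at 45 min was widest in AT2G25910. It had 204, 278 and 116 reads, or 59.3, 63.6 and 28.1 RPM, 0.474 of white light at 90 min (0.374 to 0.599). Its share was 94.1% in white light (191 of 203, interval 90.0% to 96.6%), 12.3% after 45 min (26 of 212, interval 8.51% to 17.4%) and 40.9% after 90 min (47 of 115). The share fell by 81.8 points in the earlier far-red library and by 53.2 points in the later library (Fisher's exact test, adjusted p = 1.26e-69 and 1.12e-24), and was 28.6 points higher at 90 than at 45 min (exact test, adjusted p = 4.13e-08). Both of its second windows leave a KH domain whole.

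AT4G26480 and AT2G38610 moved the same way. AT4G26480 had shares of 77.8% (147 of 189), 34.9% (82 of 235) and 50% (65 of 130), and the share fell by 42.9 and by 27.8 points (Fisher's exact test, adjusted p = 3.24e-18 and 7.49e-07). AT2G38610 had 42.7, 61.7 and 89.7 RPM, 2.1-fold higher at 90 min (1.73 to 2.56), and shares of 27.6% (32 of 116), 6.19% (12 of 194) and 14.1% (35 of 248), and the share fell by 21.4 and by 13.5 points (exact test, adjusted p = 9.41e-07 and 0.00510). AT1G14170 had 53.5, 26.7 and 64.7 RPM, 0.50 of white light at 45 min (0.393 to 0.634), and shares of 16.8% (31 of 184), 0% (0 of 110, which allows up to 2.73%) and 23.2% (62 of 267). Its share fell by 16.8 points at 45 min (exact test, adjusted p = 5.07e-07) and was 6.37 points from white light at 90 min (exact test, adjusted p = 0.152). AT4G26480 and AT2G38610 overlap other annotated genes.

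The named KH genes of flowering and stress showed no common course. HEN4 (AT5G64390), which acts in processing of AGAMOUS pre-mRNA in flowers, had 122, 86.7 and 82.4 RPM and shares of 11.2% (47 of 418), 7.27% (25 of 344) and 21.3% (61 of 287). The rise by 10.0 points at 90 min passed (Fisher's exact test, adjusted p = 0.000671). PEP (AT4G26000), PEPPER, a regulator of flowering and pistil development, had 101, 27 and 169 reads. It had 82 of 101 window reads in the second window in white light (81.2%), 0 of 7 at 45 min, too few to test, and 0 of 74 at 90 min (up to 4.05%), and the share fell by 81.2 points (exact test, adjusted p = 1.93e-30). Reads in neither window numbered 0 of 101, 20 of 27 and 95 of 169, so in far-red the share of PEP describes the smaller part of its reads. RCF3, a regulator of cold- and heat-induced gene expression, had shares of 2.91% (3 of 103), 44.4% (32 of 72) and 19.5% (23 of 118), a rise by 41.5 and by 16.6 points (exact test, adjusted p = 2.64e-11 and 0.000174). AT1G51580 had shares of 36.8%, 33.1% and 44.7% and changed only at 90 min against 45 min, by 11.6 points (exact test, adjusted p = 0.0126). HEN4, RCF3 and AT1G51580 overlap other annotated genes.

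Seen across the far-red times, 26 of the 50 members tested at both had changed at both, 12 higher, 13 lower and 1 in opposite directions, beside 47.8% of all 5899 genes, of which 219 of 2819 went in opposite directions. Both comparisons share the white light library. Of the 50 members tested in every pair, 7 changed in none, namely CCoAOMT1, AT2G37220, GRP7, ALY4, AT2G03640, AT3G25150 and AT2G33435. That is 14%, beside 702 of all 5899 genes tested in every pair (11.9%). All but AT2G33435 had at least 100 window reads in every library. Among the 39 members with at least 100 window reads in both libraries, 24 had changed at 45 min, beside 60.3% of all genes at that depth.

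**Figure D3:**
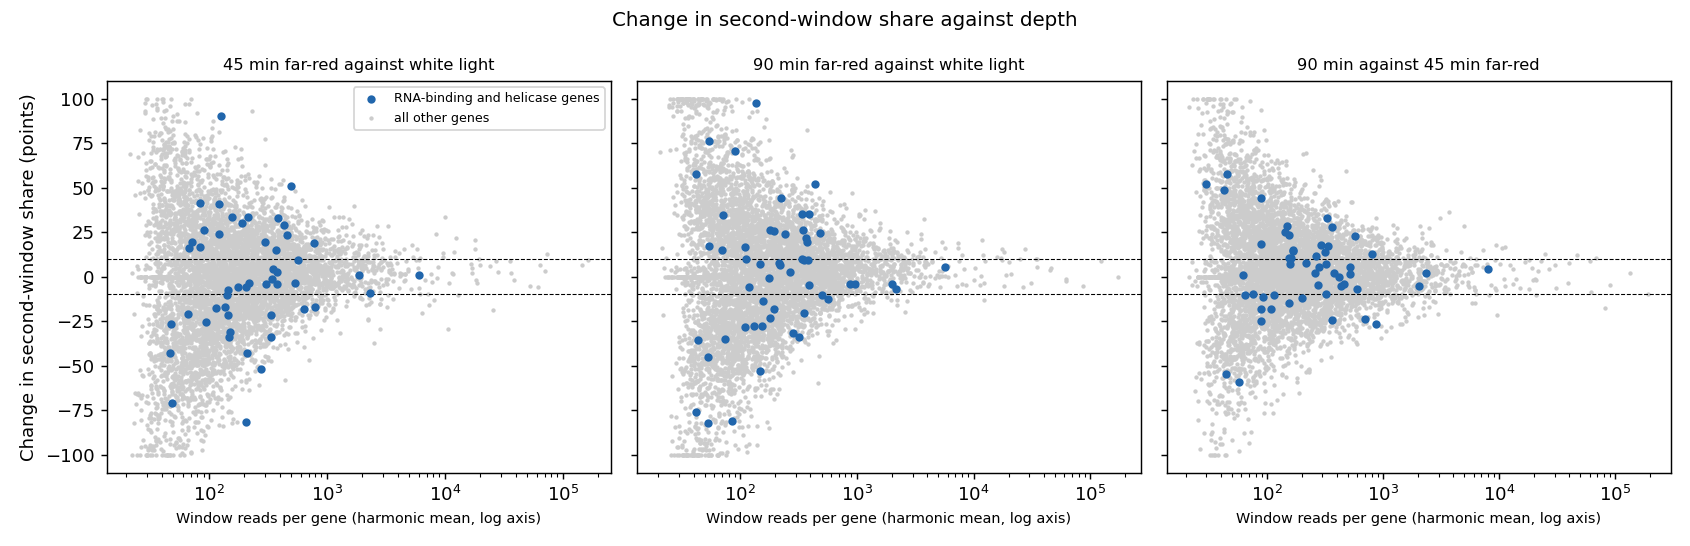
Change in second-window share (percentage points, left library of each title minus right) against the harmonic mean of a gene's window reads in both libraries (log axis), for the RNA-binding and helicase genes and all other genes tested. Dashed lines mark 10 points in each direction. The members lie within the cloud of the other genes, which narrows with depth.

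The third question was what the second windows leave of the protein. The 55 transcripts have 93 second windows, and the median window leaves 46.1% of the coding sequence, against 48.0% over all genes. By the overlap as read here, 53 of the 93 leave at least 1 of the gene's RNA domain models whole, 22 leave it in part and 18 list none. In some of the 53 only 1 of several RRM models reaches 100, as in AT2G33410 with overlaps of 80, 81 and 100. By gene, 37 members have a window with a whole model, 15 have at best a partial one and 3 have none. In UBP1A the window leaves 530 of 1281 bases and a whole RRM, in STRS1 1444 of 1614 bases with the DEAD/DEAH box and helicase C-terminal domains whole, and in HEN4 165 of 2574 bases with a KH overlap of 61. RCF3 lies at the other end, with 23 of 597 bases left. Because a domain is listed only from an overlap of 60, an unlisted domain may remain in part, and the genes were chosen for having such a domain listed.

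**Figure D4:**
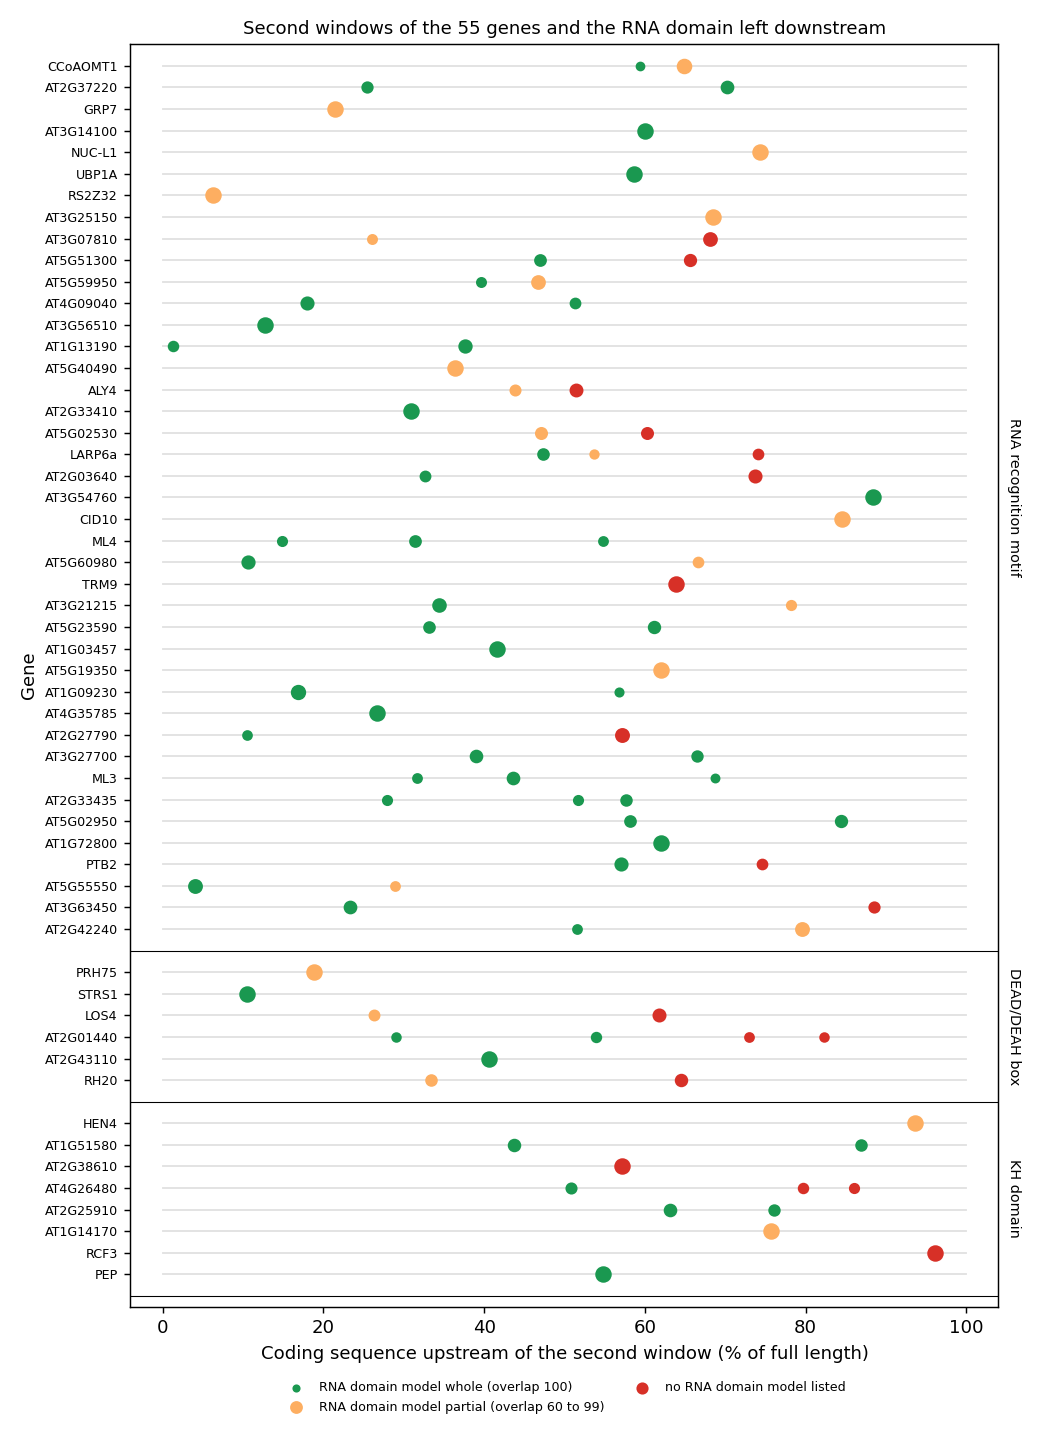
Position of the 93 second windows as the percentage of coding sequence upstream of the window, for each of the 55 genes. Colour gives the most complete RNA domain model left downstream, as read here from the authors' overlap values, and larger points hold more of the gene's second-window reads. The 53 windows with a whole domain leave a median of 56.3% of the coding sequence, and the 18 with none listed a median of 29.5%.

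Weighted by window reads, without CCoAOMT1, first windows took 60.1% of them in white light, 58.4% after 45 min and 56.7% after 90 min. Windows that leave an RNA domain model whole took 24.6%, 20.9% and 24.0%, windows with at best a partial model 10.4%, 14.0% and 12.4%, and windows with none listed 4.88%, 6.74% and 6.81%. With CCoAOMT1 first windows took 49.8%, 43.6% and 42.4%, and windows with a whole model 22.2%, 18.0% and 21.1%. Windows with at best a partial model then took 24.2%, 33.9% and 31.6%, and windows with none listed 3.80%, 4.56% and 4.79%. These sums weight deep genes most and were not tested.

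Within 13 members some second windows list an RNA domain and others do not, and the balance between them varied. In LOS4 a window that leaves 1098 of 1491 bases keeps the DEAD/DEAH box (overlap 91) and the helicase C-terminal domain, and a window that leaves 571 bases keeps only the C-terminal domain. The shorter one held 68 of 145 second-window reads in white light (46.9%), 230 of 318 after 45 min (72.3%) and 159 of 260 after 90 min (61.2%). In LARP6a the windows without a listed RRM held 10 of 100, 107 of 248 and 112 of 316 second-window reads. In AT5G02530 they held 87 of 288, 101 of 130 and 71 of 102, and in AT3G07810 134 of 195, 163 of 225 and 216 of 281. In AT5G51300 they held 87 of 161, 204 of 397 and 130 of 236. The balance was not tested, and the reads behind it are few in most of the 13.

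The family lists placed these genes among their relatives. Of 120 listed loci, 50 were in the table, and 12 of those are among the 55. The window split of the listed genes had changed in 32 of 49 tested at 45 min, 19 higher and 13 lower, and in 32 of 49 at 90 min, 21 higher and 11 lower, beside 65.9% and 68.1% of all genes. Read level passed 2-fold in 1 gene upward and 1 downward of 50 at 45 min, and in 1 upward and 4 downward at 90 min, where 24.9% and 28.1% of all genes did. Among all genes with at least 100 reads in both libraries 8.76% and 9.30% did, and the listed genes were not matched for depth. The MEI2-like genes had a higher second-window share at 45 min in 4 of 4 and at 90 min in 3 of 4, beside 31.9% and 37.6% of all genes with a higher share, and ML2 and ML5, which are not among the 55, stood at 50.7%, 73.5% and 74.1% and at 35.9%, 51.6% and 54.8%. The SR splicing factors changed in 8 of 9 tested at 45 min, 5 higher and 3 lower, and in 5 of 9 at 90 min, 3 higher and 2 lower. Of the spliceosomal U1, U2 and U2AF list 2 of 10 genes were in the table and 0 changed. A search for further domain words, among them LSM, G-patch and exonuclease, found 42 more genes, but 11 of these matched through the endonuclease/exonuclease/phosphatase family, which takes in inositol phosphatases, and 1 through a Rubisco methyltransferase model. They are therefore no set of RNA-related genes. Their split had changed in 28 of 40 at 45 min, 10 higher and 18 lower, and in 29 of 38 at 90 min, 9 higher and 20 lower. Over all genes 65.9% and 68.1% had changed, with 34.1% and 30.6% of all genes to a lower share.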

How the data were processed

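The samples were grouped by the treatment in the labels, 1 library per group. The authors deposited unscaled counts of reads, per the file headers, per transcript, per first window and per second window, with coding lengths in bases and domain listings. FastQC, cutadapt, HISAT2 2.0.5, SAMtools 0.1.19, bedtools 2.17.0 and the builds TAIR9 and TAIR10 are named, without roles, per the submitters' processing notes. The annotation version, the treatment of duplicate reads, the strand rule and the way entries were selected are not given in the sources used here. Each transcript in the table has at least 100 reads over the 3 libraries, so the table totals are not library depth.

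Members and family lists were chosen with earlier results of these data known. The transcript with the most reads stood for each gene, and its second windows were summed. Splits were compared over the whole table by Fisher's exact test and adjusted after Benjamini and Hochberg (SciPy 1.17.1, pandas 2.3.3, Python 3.11.15). The code was also run on simulated reads drawn with counting error alone. These held no variation between libraries and no duplicate reads, so they cannot show how often such variation is called. Levels are log2 ratios of RPM plus a pseudocount of 1 (low genes therefore appear to change less), for genes with at least 20 reads in 1 of the libraries. No count model was fitted, since no group has replicates. All 55 loci matched RefSeq (TAIR10.1), 19 with a symbol of their own.

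Named were, in each domain class, the 3 genes with the most reads, then the 4 largest rises and falls in level at each far-red time (at least 100 reads in both libraries) and in share at 90 min (at least 100 window reads in every library), and the genes that the family lists share with the 55, at most 4 a list. AT5G51300, LARP6a, AT1G03457, ALY4, AT3G25150, AT2G33435, AT2G01440, AT2G43110, RH20, AT4G26480, PEP, RCF3, AT2G42240, AT2G27790 and AT3G07810 were named by other criteria after their values were seen. Alternatives varied the depth minimum, the size of the change, the transcript, the pseudocount, the scaling and the choice of members.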

Additional observations from a re-analysis of the deposited data

Results flagged for a closer look

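Reads of the 55 genes that fell in neither the first nor the second windows, which are part of the read levels but of no second-window share, were more frequent in far-red. They made up 16.8% of the reads at 45 min (16.4% to 17.2%) and 17.5% at 90 min (17.0% to 17.9%), against 11.8% in white light (11.4% to 12.2%, 95% Wilson intervals). Without CCoAOMT1 they made up 21.6% at 45 min and 21.7% at 90 min, against 13.9% in white light. Over the whole table they made up 17.4% at 45 min and 16.7% at 90 min, against 15.2% in white light. A difference between the members and the table was not tested.

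AT2G27790, an RRM gene, changed its second-window share in opposite directions at the far-red times. The share was 76.1% in white light (178 of 234 window reads), 100% at 45 min (82 of 82) and 40.9% at 90 min (18 of 44), which is 23.9 points at 45 min and -35.2 points at 90 min against white light. Between 90 and 45 min it differed by -59.1 points (Fisher's exact test, adjusted p = 1.55e-14). Its reads numbered 244, 92 and 45 in white light, after 45 min and after 90 min.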

How the results depend on the processing

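Of the 71 recomputed values, 52 stayed within 1.5 times the count reported or 0.1 of the median log2 ratio reported. The choice of members moved the counts most, in alternatives chosen after seeing the data. With members taken by domain accession, 64 of 90 had a changed split at 45 min, 67 of 95 at 90 min and 51 of 96 between the far-red libraries. In level, 24 of 103, 27 of 102 and 18 of 103 passed 2-fold. Without the members that overlap another gene the splits changed in 16 of 25, 18 of 28 and 14 of 26. Levels passed 2-fold in 6, 8 and 7 of 29, and the median log2 ratio became -0.11 at 45 min and 0.10 at 90 against 45 min. These sets hold more or fewer genes. At least 100 window reads in both libraries left 18 of 38 changed at 90 against 45 min, and a minimum of 20 points left 16 of 52. At least 100 reads in 1 of the libraries left 7 past 2-fold at 45 min and 6 at 90 against 45 min, and a pseudocount of 5 RPM left 8 at 90 min. The number of members with a whole domain model, 37, stayed within 1.5 times in each alternative run.

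No paired analysis was possible because no condition was sampled more than once, and for the same reason no replicate was left out. Shallow genes limit the precision. Among members with at least 20 window reads, the Wilson interval of a share had a median width of 10.0 points in white light and reached 31.4 points at 45 min.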
